A study of Bos taurus with 25 samples.

Results

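Hepatic transcripts of lactating dairy cows that received vitamin B12 were compared with those of cows that received saline, on 7 of the 25 arrays of the series. The arrays were chosen by their labels alone: 4 liver biopsies of the B12 group (cows 36, 37, 40 and 52) and 3 liver biopsies of the control group (cows 42, 43 and 51), with 1 array per cow. All animals were Holstein cows in lactation, biopsied 64 ± 3 days after calving, and all had weekly intramuscular injections of 5 mL. Each array is a separate animal. Injections held saline in the control group, 10 mg of vitamin B12 as cyanocobalamin in the B12 group, 320 mg of folic acid in the B9 group (3 liver arrays) and both vitamins in the B9_B12 group (2 liver arrays). Mammary gland biopsies of the same 4 groups filled the other 13 arrays.

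Vitamin B12 is a cofactor of cytosolic methionine synthase (MTR), which passes a methyl group from folate to homocysteine, and of mitochondrial methylmalonyl-CoA mutase (MMUT), which leads propionate into the citric acid cycle. Cattle absorb little glucose from the gut, and their liver makes most of it, largely from propionate that rumen microbes release. Interferon-stimulated genes are a set of antiviral and signalling genes that rise together when type I interferon binds its receptor.

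The arrays carried 43653 probes, and 11068 gene symbols could be matched. Values are log2 intensities after quantile normalization, so that a difference of 1 is a 2-fold change, and each gene is described by its brightest probe. Between 73.5 and 84.2% of probes were well above background on the 7 arrays, and no spot was saturated. The 2 arrays scanned on a separate day (B12 cow 37 and control cow 43, on the same slide) had median signals of 3.23 and 3.58 times the background, against 6.90 to 10.5 times on the other 5. Among the further liver arrays, B9 cow 57 and B9_B12 cow 32 stood apart, with median correlations of 0.972 and 0.973 with the other livers, against 0.989 to 0.992 for the 7 compared. The liver label was borne out on all 7 arrays, since the 16 measured hepatocyte markers were well above background on each, and their mean was 17.56 to 17.66. On a scale shared by both tissues, the hepatocyte mean was 17.02 to 17.16 in these livers and 7.37 to 7.89 in mammary glands of the saline and B12 groups.

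IFI6, a small interferon-induced mitochondrial protein, was the only gene that limma called in the liver of B12 cows. Its log2 intensity was 13.36, 13.07 and 12.98 in control cows 42, 43 and 51. It was 17.49, 16.25, 16.92 and 16.81 in B12 cows 36, 37, 40 and 52. Every B12 array stood well above every control array. The difference was 3.73 ± 0.31 (SE), or 13.3-fold, with an adjusted p of 0.0158 by limma. IFI6 was the only 1 of 43653 probes past an adjusted p of 0.05 and a 2-fold change (0.00229% of probes), while 920 probes had an unadjusted p under 0.05. An exact permutation test of IFI6 alone gave p = 0.0286, two-sided, which is the smallest p that 4 arrays against 3 allow and which follows from the separation of the groups, so it adds no support of its own. In a biopsy, a higher RNA level per cell and a larger share of cells that express the gene cannot be told apart.

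The size of the IFI6 difference moved less than its call. With each of the 7 arrays left out in turn the difference was 3.52 to 3.94, with adjusted p between 0.0172 and 0.21 (limma), and the call was lost without control cow 42, 43 or 51 or B12 cow 40 or 52. Within the 2 slides that held an array of each group, the difference was 3.94 (cow 40 minus cow 51) and 3.18 (cow 37 minus cow 43). With slide as a fixed block the difference was 3.38 with an adjusted p of 1, and with scan day as a fixed block, chosen after seeing the data, it was 3.72 with an adjusted p of 0.0731 (limma).

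IFI27, an interferon-induced protein of the same gene family, followed with 14.12, 14.64 and 13.59 in the control cows. The B12 cows had 17.46, 16.55, 17.12 and 17.09. Groups did not overlap, and the lowest B12 cow, cow 37, was well above the highest control, cow 43. The difference was 2.94 ± 0.51 (SE), or 7.67-fold, with an unadjusted p of 0.000205 and an adjusted p of 1 (limma over the 12 liver arrays). The other 2 probes of IFI27 gave 2.96 and 3.26. In a fit over the 25 arrays of both tissues, chosen after seeing the data, the difference of IFI27 was 3.23 with an adjusted p of 0.00215 (limma), and IFI6 and IFI27 were the 2 genes called. ISG12(B), a further gene of this family whose probe may also bind related transcripts, was 8.33, 8.57 and 8.09 in the controls and 13.70, 9.97, 9.83 and 9.84 in the B12 cows, so that cow 36 stood far above the other 3.

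**Figure D1:**
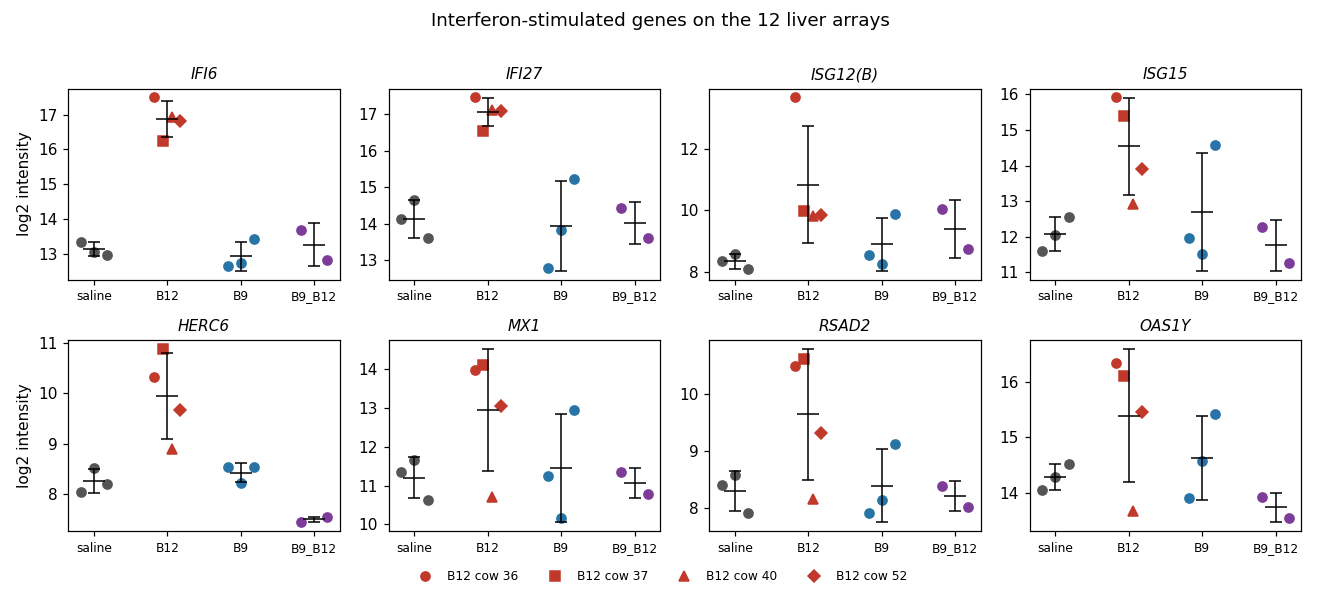
Log2 intensity of 8 interferon-stimulated genes on the 12 liver arrays by group (saline n = 3, B12 n = 4, B9 n = 3, B9_B12 n = 2). Each point is 1 cow and black bars are the mean and SD. The 4 B12 cows lie above all controls for IFI6 and IFI27, whereas cow 40 (triangle) lies among the controls for MX1 and RSAD2 and below them for OAS1Y.

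The wider interferon-stimulated list held 50 genes, of which 32 were measured. The mean of the B12 arrays was above that of the controls for 32 of the 32, compared with 54.1% of all 11068 genes. That count was 27 without the second scan day, 29 without B12 cow 37 or with scaling to the 75th percentile in place of quantiles, and 30 with slide as a fixed block or with array weights. Their median difference was 0.53, and 0.01 over all genes. Of the 32 members, 9 had an unadjusted p under 0.05 with a higher level, against 1.74% of all genes. Groups were separate, with every B12 array above every control, for 5 members (IFI6, IFI27, ISG15, HERC6 and LGALS3BP), against 2.9% of all genes.

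Among the ubiquitin-like modifiers of this list, ISG15, which is attached to proteins during an interferon response, was 11.60, 12.04 and 12.57 in the controls. It reached 15.92 and 15.40 in B12 cows 36 and 37 and 13.91 in cow 52, and was 12.92 in cow 40, just above the highest control. The difference was 2.47 ± 0.85 (SE), with an unadjusted p of 0.0162 and an adjusted p of 1 (limma). It was 0.35 on the slide of cows 40 and 51 and 3.36 on that of cows 37 and 43. HERC6, a ligase related to the one that conjugates ISG15, was 8.04 to 8.51 in the controls and 10.32, 10.89, 8.89 and 9.67 in the B12 cows. USP18, the protease that removes ISG15, was 8.91 to 9.34 in the controls and 11.09, 10.36, 8.80 and 9.98 in the B12 cows. Cow 40 had the lowest B12 value for each of these.

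Several antiviral effectors were likewise lowest in cow 40 among the B12 cows. MX1, a GTPase that blocks viral ribonucleoproteins, was 11.35, 11.66 and 10.61 in the controls and 13.98, 14.11, 10.71 and 13.04 in B12 cows 36, 37, 40 and 52. RSAD2, a radical SAM enzyme also known as viperin, was 7.91 to 8.57 in the controls and 10.49, 10.62, 8.15 and 9.32 in the B12 cows. OAS1Y, an oligoadenylate synthetase, was 14.05 to 14.52 in the controls and 16.34, 16.10, 13.68 and 15.45 in the B12 cows. Cows 36, 37 and 52 were above every control for these genes, while cow 40 was within the control range for MX1 and RSAD2 and below it for OAS1Y. OAS1X was not well above background on any control array and was so on 3 of the 4 B12 arrays, at least 5.45-fold higher in the B12 group when the dimmest measurable signal of each array stands for the controls. That ratio came from cows 36 and 37 at 10.23 and 11.05, since cows 40 and 52 had 6.45 and 6.02.

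Counted over the whole list, cow 37 was above all controls for 32 of 32 members, cow 36 for 26 and cow 52 for 22. The same was true of 30.2%, 31.9% and 21.5% of all genes on these arrays. Cow 40 was above all controls for 6 of 32 members (18.8%), against 25.3% of all genes, and below them for 8 (25%), against 22.7% of all genes. The mean of the list was 10.27 to 10.48 in the controls and 11.80, 11.74, 10.53 and 11.10 in cows 36, 37, 40 and 52. IFI6 and IFI27 were above the controls in all 4 B12 cows, while most other members were above them in cows 36, 37 and 52 and not in cow 40. The list median was 0.73 without cow 40 and 0.43 without cow 36.

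The list also held 4 sensors and signalling genes, with a median difference of 0.40. IRF7, the transcription factor that amplifies interferon production, was 10.63 to 11.34 in the controls and 12.53, 12.47, 10.93 and 11.38 in the B12 cows, so that the groups overlapped. The difference was 0.15 for IRF9, a subunit of the factor that binds interferon response elements. Receptor and kinase genes had a median of -0.07 over 6 measured genes, the highest being 0.29 for IFNAR2. Of 10 measured genes of class I antigen presentation, 9 had a higher mean in B12 cows, with a median of 0.24 and 0.65 for PSMB10, a subunit of the immunoproteasome. Markers of T and NK cells (12 measured, median 0.06) and of B and plasma cells (6 measured, median -0.01) had no member with an unadjusted p under 0.05, which at 1.74% higher and 0.958% lower among all genes is no result about them.

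In the mammary gland of the same cows, B12 against saline gave no called probe (smallest adjusted p 0.402, with 1083 probes at an unadjusted p under 0.05, limma). Of the 32 interferon members, 27 had a higher mean there, against 52.7% of all genes, with a median of 0.19, and 2 had an unadjusted p under 0.05 with a higher level. In the mammary gland IFI6 was 10.96, 10.95 and 10.74 in control cows 42, 43 and 51 and 11.24, 12.29, 11.04 and 11.92 in B12 cows 36, 37, 40 and 52. ISG15 was 8.77, 9.25 and 9.45 in these controls and 10.69, 11.24, 9.25 and 10.52 in the B12 cows. Cow 40 lay within the mammary control range for ISG15, and was the lowest B12 cow for this gene in both tissues. In mammary tissue cows 36, 37 and 52 were above all mammary controls for 22, 22 and 20 of the 32 members, compared with 27.3%, 26.5% and 28.2% of all genes. Cow 40 was above for 7, compared with 28.2% of all genes. The B12 difference of IFI6 was larger in the liver than in the mammary gland by 3.18 ± 0.46 (SE), with an adjusted p of 0.0697 by limma, and no probe passed in that test (796 probes at an unadjusted p under 0.05).

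**Figure D2:**
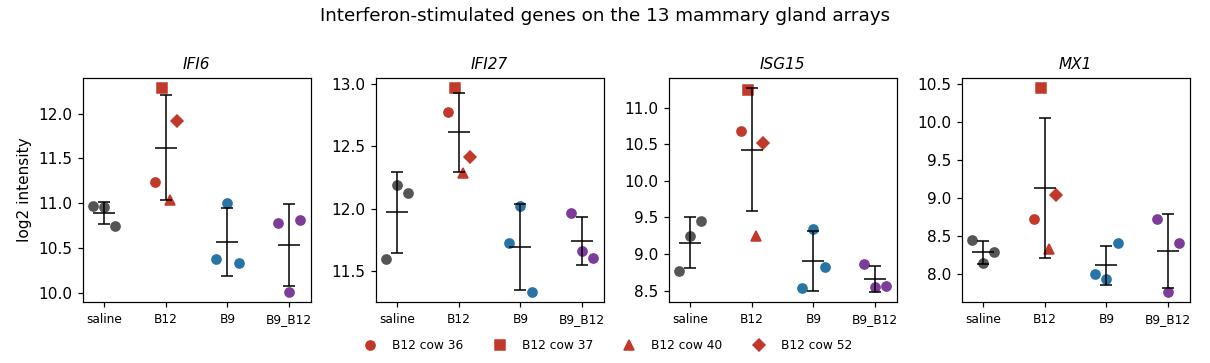
Log2 intensity of 4 interferon-stimulated genes on the 13 mammary gland arrays by group, normalized together with the liver arrays. Points are cows and bars are the mean and SD. For ISG15 and MX1, cows 36, 37 and 52 lie above the 3 controls and cow 40 (triangle) lies among them.

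Livers of cows given folic acid, with and without B12, gave a separate contrast for the same vitamin. IFI6 was 12.65, 12.75 and 13.42 in the 3 B9 livers and 13.70 and 12.83 in the 2 B9_B12 livers, all near the saline level. The B9_B12 minus B9 difference was 0.32 ± 0.37 (SE) for IFI6 and 0.08 ± 0.61 (SE) for IFI27, with no settled direction, since it was -0.11 to 0.76 for IFI6 and -0.50 to 0.73 for IFI27 with single arrays left out. No probe passed in it (2112 at an unadjusted p under 0.05, limma), and 29 and 3 genes did without B9_B12 cow 38 and cow 32, fits in which 1 array stands for the group and is assumed to vary like the other groups. The B12 effect with folic acid minus that without was -3.41 ± 0.49 (SE) for IFI6, at an unadjusted p of 4.04e-05 and an adjusted p of 1 (limma), so the difference of the effects failed the correction. Over the interferon list, 4 of 32 members had a higher mean in B9_B12 than in B9 livers, with a median of -0.32, compared with 54.8% of all genes. Cow 57 of the B9 group had ISG15 at 14.58 and 21 of 32 members above all saline controls (43.4% of all genes on that array were). Set against the B9 arrays, B12 arrays had IFI6 3.93 ± 0.31 (SE) higher, with an adjusted p of 0.00976 by limma, and it was the 1 probe called (0.00229% of probes). That call was lost without B9 cow 39 or 41, at adjusted p of 0.0583 and 0.06.

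Outside the interferon list, no gene passed limma after adjustment. Cyber-T, the regularised test of the study's methods, which takes the spread from probes of like intensity in the 7 arrays alone, called 35 probes of 23 gene names (0.0802% of probes), 19 probes higher and 16 lower. On simulated data this test made more false calls than its nominal rate, so its calls are given as descriptions beside the limma values. By brightest probe it called 0.0904% of the genes with a symbol, and limma 0.00904%. That count was 20 to 56 names with each array left out in turn, and it was 36, 45 and 56 without control cow 43, B12 cow 40 and B12 cow 52. DLK1, IFI27, IFI6 and SFRP1 were among the genes called in all 7 of these. For PPP1R3B, ID1, DLK1 and MYOM1 the probes called were not the brightest probe of the gene, which is the one described. The study also measured some of its listed genes in the liver by quantitative PCR. It reported G0S2 higher, and DLK1 and MT1A lower, with B12. No significant B12 effect was reported for HERC6, IFI27, ISG15, MEP1B, PPP1R3B or SFRP1, nor for GPNMB, which rose numerically. Its discussion still lists IFI27 and SFRP1 among genes affected by the vitamins, to varying extents. Its text gives no such measurement of IFI6.

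G0S2 inhibits adipose triglyceride lipase, the enzyme that opens triglyceride breakdown in lipid droplets. It was 11.22, 12.50 and 11.84 in the controls and 14.12, 13.77, 14.43 and 12.79 in B12 cows 36, 37, 40 and 52. The groups were separated by a narrow gap between control cow 43 and B12 cow 52. The difference was 1.92 ± 0.55 (SE), or 3.79-fold, with adjusted p of 1 by limma and 0.0046 by Cyber-T. B9 livers had 13.57, 12.41 and 14.50 and B9_B12 livers 12.82 and 13.92, and the B12 minus B9 difference was 0.28 ± 0.55 (SE), or -0.26 to 0.79 with single B9 arrays left out. The 14 measured genes of the droplet and lipolysis had a median of 0.00, -0.24 for the lipase PNPLA2 itself and 0.22 for the coat protein PLIN2.

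MEP1B, the beta subunit of the metalloprotease meprin, was 11.10, 10.28 and 11.20 in the controls and 12.43, 11.84, 12.12 and 12.20 in the B12 cows. The groups did not overlap, the difference was 1.29 ± 0.46 (SE), with an adjusted p of 0.0123 in Cyber-T and 1 in limma. B9 livers spanned 10.40 to 12.37. PPP1R3B, which brings protein phosphatase to glycogen, was 9.70, 10.93 and 10.32 in the controls and 11.44, 11.20, 11.75 and 11.07 in the B12 cows, a difference of 1.05 ± 0.50 (SE) on its brightest probe and 1.07 and 1.11 on the probes that Cyber-T called. Its relative PPP1R3C had a difference of 0.68, and GYS2, the liver glycogen synthase, of -0.61, each with p above 0.05 in limma.

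ID1, an inhibitor of DNA binding induced by bone morphogenetic proteins, was 10.69 to 11.27 in the controls and 12.38, 12.10, 11.28 and 11.89 in the B12 cows. Cow 40 lay just above the highest control, and the difference was 1.00 ± 0.34 (SE). Within the same list HAMP, which encodes the iron hormone hepcidin, had a difference of 0.81 with overlapping groups, and TFR2, an iron sensor of hepatocytes, was 11.07 to 11.24 in the controls and 10.39 to 10.89 in the B12 cows. The differences of ID2 and ID3 were -0.14 and -0.13.

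GPNMB, a glycoprotein of lipid-laden macrophages and other lysosome-rich cells, was 10.06, 8.96 and 8.76 in the controls and 11.99, 10.51, 10.84 and 10.68 in the B12 cows. The difference was 1.75 ± 0.72 (SE) and the groups were separate. LGALS3, a galectin of macrophages that Cyber-T did not call at a 2-fold change, was 8.18 to 8.62 in the controls and 8.89 to 9.80 in the B12 cows. In the macrophage list, to which both belong, 9 of 14 members had a higher mean in the B12 cows, with a median of 0.01, and GPNMB, LGALS3 and CD14 (3 of 14, against 2.9% of all genes) had every B12 array above every control. The list mean was 11.37 to 11.45 on the control arrays and 11.46 to 11.71 on the B12 arrays. The differences were 0.00 for CD68, 0.01 for C1QA and -0.25 for CD163, which are macrophage markers as CD14 is. The part of macrophage RNA in the differences of GPNMB and LGALS3 was not tested. In cows given folic acid, GPNMB was 8.16, 8.48 and 11.29 in B9 and 12.35 and 11.56 in B9_B12 livers, a difference of 2.65 ± 0.85 (SE). LGALS3 differed in that pair by 1.55 ± 0.41 (SE), with adjusted p of 0.991 for GPNMB and 0.923 for LGALS3 (limma).

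On the lower side, MT1A, a metallothionein that binds zinc and copper, was 17.02, 17.81 and 17.73 in the controls and 16.11, 16.82, 15.51 and 14.65 in the B12 cows. The groups were separate, and the difference was -1.75 ± 0.62 (SE), with adjusted p of 1 by limma and 0.0231 by Cyber-T. MT2A, of the same family of near-identical genes, between which probes may not separate transcripts, was 13.90 to 14.49 in the controls and 11.67, 13.55, 13.03 and 11.43 in the B12 cows (Cyber-T adjusted p 0.0529). MT1A was also lower in B9_B12 than in B9 livers, at 15.33 and 13.24 against 17.10, 17.64 and 18.73, a difference of -3.54 ± 0.75 (SE) with an unadjusted p of 0.000826 and an adjusted p of 0.864 (limma). MTF1, the zinc-sensing factor that drives metallothioneins, had a difference of -0.12, and the median of the 9 measured genes of this list was 0.04.

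SFRP1, a secreted WNT antagonist, was 10.57, 9.17 and 10.11 in the controls and 7.45, 8.95, 8.59 and 8.21 in the B12 cows, with no overlap and a difference of -1.65 ± 0.55 (SE). Its other 2 probes gave -1.52 and -1.47. On the slide scanned separately the difference was -0.22, and on the slide with cows 40 and 51 it was -1.53. DLK1, an imprinted transmembrane regulator of growth, was 12.15 to 12.84 in the controls and 11.29 to 12.16 in the B12 cows on its brightest probe, with overlapping groups, and its other 4 probes ranged from -1.80 to -0.91. The DLK1 probes that Cyber-T called, at -1.80, -1.37 and -1.23, had every B12 array below every control (adjusted p 0.00564, 0.00369 and 0.00818). MYOM1, a sarcomere protein, had the largest negative value of the genes described here, -2.37 ± 0.75 (SE), with 11.96 to 13.58 in the controls, yet cow 40 at 12.43 overlapped them and its other probes gave -1.08 and -0.04. The list of 16 muscle genes had a median of -0.05.

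**Figure D3:**
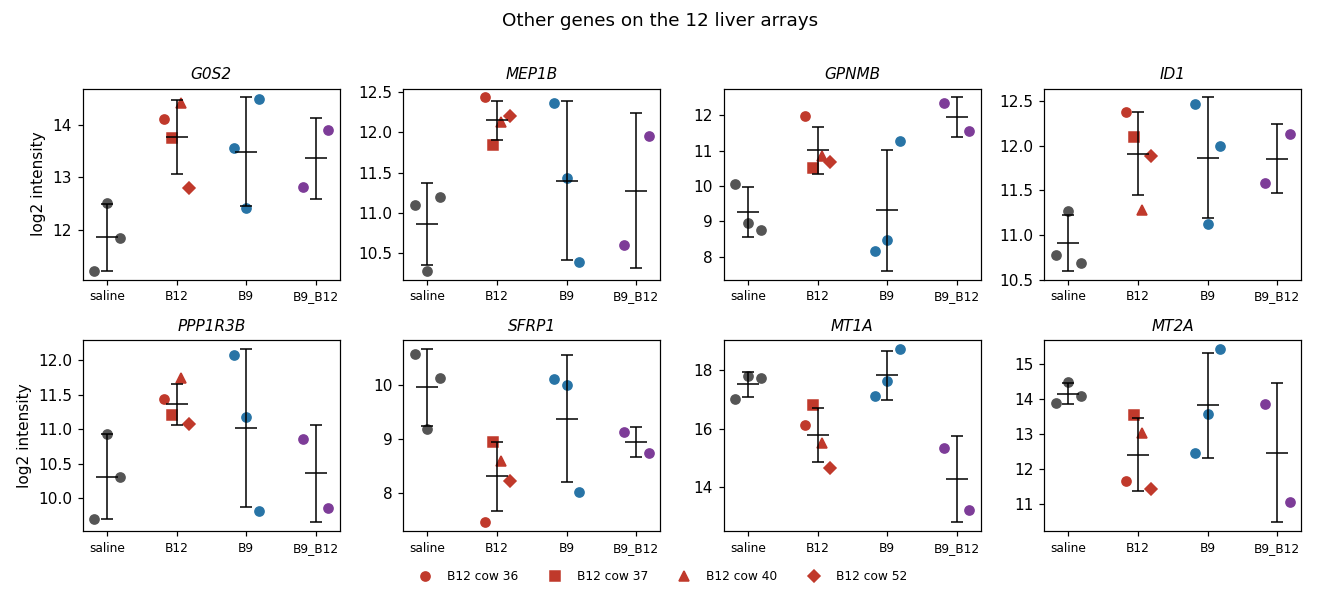
Log2 intensity of 8 further genes on the 12 liver arrays by group, with points for cows and bars for the mean and SD. G0S2, MEP1B, GPNMB, ID1 and PPP1R3B are higher and SFRP1, MT1A and MT2A lower on the 4 B12 arrays than on the 3 saline arrays, while the B9 and B9_B12 arrays of several genes reach the B12 level.

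Among further genes with differences under 2-fold, CDK5R1, SPP1, SESN2 and TRIB3 had separate groups, as did 2.9% of all genes on the higher side. CDK5R1, an activator of the kinase CDK5, was 6.31 to 6.43 in the controls and at least 6.74 in every B12 cow. SPP1, the secreted glycoprotein osteopontin, was 6.10 to 6.33 and 6.60 to 7.01. Both genes were dim, with control signals not far above the 5.97 of OAS1X, which was not well above background on any control array. On the scale shared by both tissues, SPP1 was 15.0 and 15.3 in mammary glands of the saline and B12 groups. SESN2 and TRIB3, stress genes that respond to amino acid shortage, were 6.71 to 6.96 against 7.09 to 7.51 and 10.56 to 11.23 against 11.28 to 11.87. FUT6, a fucosyltransferase, was over 2-fold with a difference of 1.08 and was called by Cyber-T (adjusted p 0.039). It was well above background on 1 of 3 control and 4 of 4 B12 arrays, and its groups overlapped (6.04 to 6.97 against 6.82 to 7.93).

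Of the 14 measured genes that handle or use B12 itself, 10 had a lower mean in the B12 cows, against 45.9% of all genes, with a median of -0.12 and the lowest at -0.45 for MMAB, which makes the adenosyl form of the cofactor. MTR was 7.48, 7.54 and 7.82 in the controls and 7.68, 7.36, 7.79 and 7.61 in the B12 cows, a difference of -0.01 ± 0.12 (SE). MTRR, which reactivates methionine synthase, differed by -0.08 ± 0.22 (SE), and MMUT by -0.38 ± 0.35 (SE). MMAA, the chaperone that loads the cofactor onto the mutase, was 12.10, 12.37 and 12.37 in the controls and 11.89, 11.88, 12.02 and 11.98 in the B12 cows. Its groups were separate, with a difference of -0.34 ± 0.08 (SE) with an unadjusted p of 0.00126 and an adjusted p of 1 (limma), and all 5 arrays of B9 and B9_B12 livers, at 11.69 to 11.80, were lower still. The plasma carrier TCN2 differed by 0.16 and its receptor CD320 by -0.11. Of these 14 genes, 1, MMAA, had separate groups on the lower side, where 2.08% of all genes had them, and it alone had an unadjusted p under 0.05, where 0.958% of all genes did on that side.

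In the methionine cycle, 10 of 11 measured genes had a lower mean in the B12 cows, against 45.9% of all genes, by a median of -0.15. The mean of the list was 13.01 to 13.09 on the control arrays and 12.81 to 12.92 on the B12 arrays, without overlap. It was 12.88 to 13.05 on the B9 arrays and 12.91 to 12.99 on the B9_B12 arrays. Lower means were thus also found in livers given folic acid, with or without B12. AHCY, the hydrolase of S-adenosylhomocysteine, was 16.77, 16.78 and 16.78 in the controls and 16.38, 16.60, 16.52 and 16.74 in the B12 cows. MAT1A, the hepatic synthetase of S-adenosylmethionine, and BHMT, which remethylates homocysteine with betaine, each differed by -0.38, with unadjusted p of 0.0672 and 0.222 (limma). CBS, the entry to transsulfuration, differed by -0.34. Folate enzymes and carriers had a median of 0.00 over 18 genes, with 0.04 for SHMT1.

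In the urea cycle list, 8 of 8 measured genes had a lower mean in the B12 cows, against 45.9% of all genes, with a median of -0.33. The count was 7 without B12 cow 36 or with slide as a fixed block. The list mean was 14.36 to 14.57 in the controls and 13.93 to 14.19 in the B12 cows. ASL, which splits argininosuccinate, was 15.22, 14.92 and 14.74 in the controls and 14.32, 13.84, 14.41 and 14.65 in the B12 cows, a difference of -0.65 ± 0.23 (SE) with an unadjusted p of 0.0161 and an adjusted p of 1 (limma). CPS1, which fixes ammonia at the start of the cycle, differed by -0.41 and OTC by -0.30. Of the other liver arrays, B9 cows 39 and 57 and B9_B12 cow 38 also had list means below the controls, 14.26, 13.90 and 14.06.

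Cholesterol synthesis and uptake showed 13 of 13 measured genes with a lower mean in the B12 cows, against 45.9% of all genes. Their differences were -0.29 to -0.67, with a median of -0.49. The groups overlapped for 12 of the 13 members, and 2.08% of all genes had separate groups on the lower side. SQLE, squalene epoxidase, was 14.50 to 15.12 in the controls and 12.73, 14.66, 14.33 and 15.19 in the B12 cows. Cows 36, 37, 40 and 52 were below all controls for 13, 6, 8 and 1 of the 13 members, against 22.1%, 22.3%, 22.7% and 22.2% of all genes. B9 cows 39, 41 and 57 were below them for 10, 1 and 13, against 26.1%, 23.1% and 31.5% of all genes, and B9_B12 cows 32 and 38 for 8 and 4, against 29.1% and 23.2%. B12 arrays had a lower mean than B9 arrays for 4 of 13, with a median of 0.18, and a higher one for 50.3% of all genes. Against saline, the median was -0.20 without cow 36, where 1 member had a higher mean, and -0.78 without cow 52.

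Fatty acid and glycerolipid synthesis had a median of -0.40 over 9 genes. SCD, the delta-9 desaturase, was 13.87 to 15.07 in the controls and 11.56, 13.20, 14.17 and 14.99 in the B12 cows, and FADS2 followed the same order with 14.27, 14.90, 15.83 and 17.00. GPAM, the first acyltransferase of glycerolipid synthesis, was 11.12, 11.38 and 12.11 in the controls and 10.53, 10.52, 10.53 and 11.01 in the B12 cows, without overlap. The difference was -0.88 ± 0.26 (SE), with adjusted p of 1 by limma and 0.164 by Cyber-T. The B9 and B9_B12 livers had GPAM at 10.32 to 11.15.

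**Figure D4:**
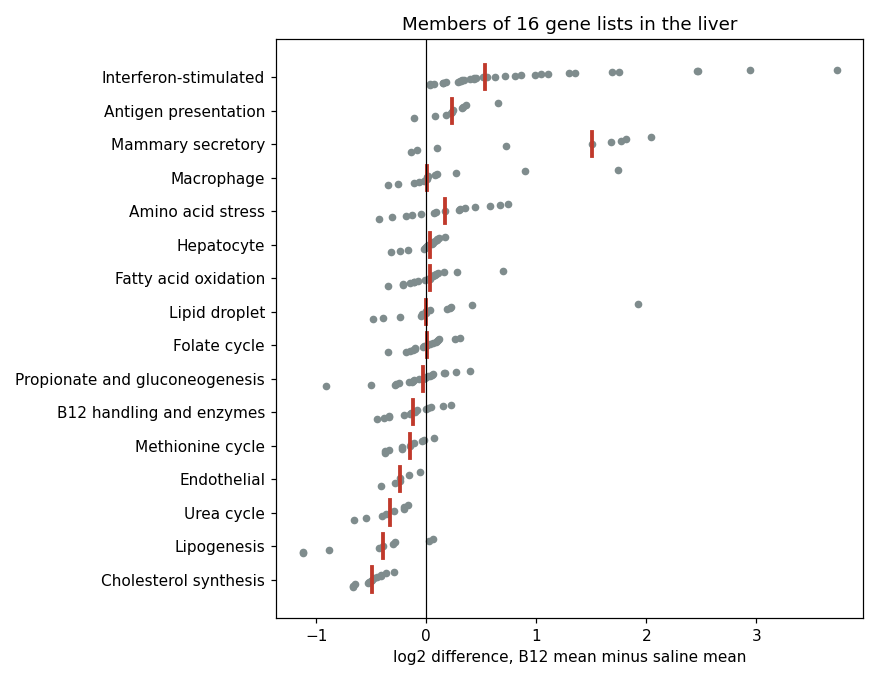
Log2 difference between the mean of the 4 B12 and the 3 saline liver arrays for each measured member of 16 gene lists (points), with the list median as a red bar. Interferon-stimulated genes lie above 0 and cholesterol and urea cycle genes below 0, while the hepatocyte list is centred at 0.04.

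Energy pathways that feed on propionate and fatty acids had medians near 0. Over 21 genes of propionate use and gluconeogenesis the median was -0.03, with -0.25 for PCK1 and -0.28 for G6PC1, and none had an unadjusted p under 0.05, where 1.74% of all genes were higher and 0.958% lower at that p. Over 20 genes of fatty acid oxidation and ketogenesis the median was 0.03. Acute phase proteins had a median of -0.08 over 18 genes, with -0.52 for haptoglobin (HP). ITIH4, a plasma protein of that list, was 17.89 to 18.12 in the controls and 17.55 to 17.86 in the B12 cows. IGFBP3, the main carrier of insulin-like growth factors, was 15.43 to 15.75 in the controls and at least 15.77 in every B12 cow.

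Markers of other cell types were set beside these differences. Milk protein transcripts were detected in the liver biopsies and were uneven between cows: the 9 mammary secretory genes had a list mean of 8.19 to 8.27 on the control arrays and 10.29, 10.01, 8.91 and 7.90 in B12 cows 36, 37, 40 and 52. That mean was 8.40 to 9.46 in B9 livers and 8.57 to 8.78 in B9_B12 livers, all above the saline livers. The casein CSN1S1 was 7.71 to 7.95 in the controls and 11.73, 11.35, 9.45 and 7.07 in the B12 cows. On the scale shared by both tissues, its mean was 7.44 in control livers, 9.29 in B12 livers and 18.0 in the mammary glands of both groups. Of these 9 genes, 5 had a mean more than 2-fold higher in the B12 group, as did 27 of all 11068 genes, and 1 had an unadjusted p under 0.05 with a higher level, against 1.74% of all genes. In cows 36, 37, 40 and 52, in that order, 26, 32, 6 and 22 of the 32 interferon members were above the controls. IFI6 itself was 16.1 in the B12 livers and 11.6 in the B12 mammary glands on the shared scale. The part of mammary RNA in the differences described here, those of the interferon genes included, was not tested. Endothelial markers had a lower mean in the B12 group for 6 of 6 (median -0.24), against 45.9% of all genes, and 2 of them, KDR and TEK, had an unadjusted p under 0.05, against 0.958% of all genes. The hepatocyte markers had a median of 0.04 over 16, with ALB at 0.10.

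**Figure D5:**
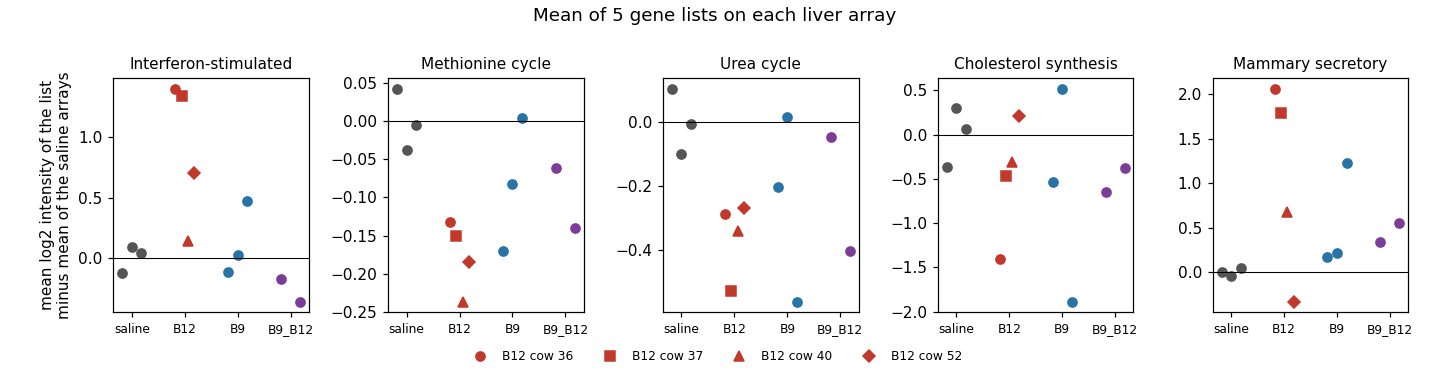
Mean log2 intensity of 5 gene lists on each of the 12 liver arrays, minus the mean of the 3 saline arrays. The B12 arrays lie below the saline arrays for the methionine and urea cycle lists, as do some B9 and B9_B12 arrays. For the interferon list the B12 arrays lie above the saline arrays, with cow 40 nearest to them (its mean includes IFI6 and IFI27, and its median member differed by -0.09). The B12 arrays overlap the saline arrays for cholesterol synthesis and the mammary secretory list.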

How the data were processed

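RNA of bovine liver and mammary biopsies was hybridised to 1-colour Agilent arrays. The authors deposited, for each array, the scanner output, whose spot intensity values came from Feature Extraction (10.7.3.1 per the file headers, 9.1 per the labels), and a table of log2 values that the authors had background-corrected by normexp and normalized between arrays. Here the intensity values were corrected by normexp (offset 50) and quantile-normalized over the 12 liver arrays, and outlier spots were left out. Spots of a probe were averaged. A fit over the 12 arrays with limma 3.58.1 (R 4.3.3) gave differences, and calls took a Benjamini-Hochberg adjusted p of 0.05 and a 2-fold change. Cyber-T, the test in the study's methods, was re-implemented with a window of 101 probes and a prior weight of 10, and both tests were tested on simulated data, where limma kept its false calls under the nominal rate and Cyber-T exceeded it. The number of arrays limits the precision.

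Groups came from the labels. Members and lists were chosen with earlier results of these data known. Named genes were IFI6, IFI27, G0S2 and MEP1B, the genes the study lists for this comparison (17 of 22 found by name or RefSeq synonym, with FUT5 matched to the array's FUT6), up to 10 of the largest separated differences each way at an unadjusted p under 0.05 and 2-fold (9 higher and 2 lower met this), separated list members at that p, the first 2 members of each list, and MTR, MTRR and MMUT. Other members quoted were chosen after their values were seen. Alternatives covered background correction, normalization, dim probes, slide, scan day, tests, probes and single arrays. Sequences and promoter motifs were not analysed here. Some named genes are not reported here.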

Additional observations from a re-analysis of the deposited data

Results flagged for a closer look

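The 4 B12 arrays were examined for 1 far from the other 3 by Dixon's ratio (the gap to the nearest array over the whole range of the group), which chance exceeds in about 1 of 20 groups. Of all 165 named genes 11 stood out, and 3 did of the 31 named for more than their place at the head of a list. ISG12(B) had a ratio of 0.963, with cow 36 the highest. GPAM had a ratio of 0.978, with cow 52 the highest. TRIB3 had a ratio of 0.866, with cow 36 the lowest.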

How the results depend on the processing

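IFI6 had a difference of 3.38 to 3.91 over the 19 alternatives that kept all 7 arrays and was called by 15. The limma count of called genes, 1, was 0 with the processed signal scaled to the 75th percentile, with slide as a fixed block, in a fit of the 2 groups alone and, chosen after seeing the data, with scan day as a block or without the second scan day (IFI6 adjusted p 0.274). It was 23 with Cyber-T, 26 with Cyber-T on the processed table of the authors, and 2 in a fit over both tissues. The cause was not tested. With single arrays left out it was 0 to 1, and the Cyber-T count was 20 to 56. The methionine cycle median was -0.22 with the mean of all probes and -0.20 to -0.15 with single arrays left out. The urea cycle median was -0.49 with slide as a fixed block. Counts with single arrays left out were 0 to 29 for B9_B12 against B9, 0 to 11 for the difference of the B12 effects, 0 to 1 for B12 against B9 and 0 to 1 for the tissue difference, which was 1 with the filter on dim probes. Among single genes whose B12 minus saline difference exceeded its SE, directions turned for ALB, whose difference was -0.0111 with the mean of all probes, for IFIT3, -0.0352 without the second scan day, and for MYH1, -0.00636 to 0.367 with single arrays left out (-0.00636 without B12 cow 40). Directions also turned for genes whose difference was under its SE, and these have no settled direction.

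No paired analysis was possible because the B12 and saline groups share no cow number, and the labels do not give the milk-yield block within which, per the study's methods, each cow was assigned its treatment. For the tissue difference, in which both biopsies came from the same cows, the fit with cow as a replicate block called 0 probes (744 at an unadjusted p under 0.05, limma), and IFI6 had an adjusted p of 0.073. Deviations of the paired biopsies correlated at -0.246 to 0.259 over 12 cows. OAS1X is limited by signal over background, with no control array well above it.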
